A study of Homo sapiens with 61 samples.

Results

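The comparison described here is the difference in the response to vincristine between neurons that lack LZK and wild-type (WT) neurons. For each gene it is the change from untreated to vincristine in the LZK knockout (KO) minus the same change in WT. It rests on 16 of the 61 libraries of the study, 4 in each of 4 groups, and covers 18235 of 58440 genes, those that passed a filter on low counts. A difference of this kind can come about at either end of the response, so each gene was also compared between the lines in untreated cells and in vincristine-treated cells. The neurons were derived from WTC11, an established line of human induced pluripotent stem cells, with a doxycycline-inducible cassette for the transcription factor NGN2, and the labels give their tissue as cortical. At day 14 they received 5 nM vincristine or its solvent DMSO (called untreated here) for 16 hours, by the design text of the series, and the extract protocol gives 10 to 14 days of differentiation. The groups were WT untreated, WT vincristine, LZK KO untreated and LZK KO vincristine, and all 4 shared the cell line, the cassette and the solvent. DLK KO and double KO neurons (lacking both DLK and LZK), with the same treatments, serve for comparison. Whether a knockout line is a single clone is not given in the sources used here, so the effects of the deletion and of the line that carries it cannot be told apart.

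LZK (gene MAP3K13) and its close relative DLK (MAP3K12) are mixed lineage kinases of axons. When an axon is cut, or its microtubules are disturbed as by vincristine, they pass a signal through the kinases MKK4 and MKK7 to JNK, which phosphorylates transcription factors such as JUN and ATF2 and can set a neuron on a path to regrowth or to death. DLK signalling is also tied to the integrated stress response, in which the sensor kinase PERK (EIF2AK3) and the factor ATF4 raise genes for amino acid supply.

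The targeted transcript was reduced but not absent. MAP3K13 (ENSG00000073803.13, GRCh38 chromosome 3, 185282941 to 185489097) stood at 96.8, 98.9, 99.1 and 102 CPM (counts scaled to a common library total) in the 4 untreated WT libraries and at 130.4, 141, 141 and 145 after vincristine. The LZK KO libraries stood at 30.1, 30.4, 33.0 and 34.2 untreated and at 35.1, 36.1, 37.3 and 37.8 after vincristine. No LZK KO library reached the lowest WT library, and the untreated difference, LZK KO minus WT, was -1.63 ± 0.06, adjusted p = 5.07e-22 (log2 ± standard error, SE; edgeR's quasi-likelihood test with Benjamini-Hochberg adjustment, as for every adjusted p below). The rise of MAP3K13 in WT was 0.49 ± 0.06 and the difference in response -0.29 ± 0.09, adjusted p = 0.0202. That call was lost without LZK KO untreated replicate 2 (-0.25) and without LZK KO vincristine replicate 1 (-0.27). MAP3K12 ran from 89.7 to 94.3 CPM in untreated WT and from 73.0 to 82.2 in untreated LZK KO, a called difference of -0.26 ± 0.10, adjusted p = 0.0447. Its own response was not called in WT (0.20 ± 0.10) or in LZK KO (0.14 ± 0.10), and the difference in response was -0.05 ± 0.14.

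Total counts ran from 8.41 to 14.6 M (M, mega) over the 16 libraries. WT vincristine replicate 4 and LZK KO vincristine replicate 4 stood apart, with mean correlations with their own groups of 0.588 and 0.534 against 0.666 to 0.821 for the other 14 libraries, and leading counts are also given without each. WT vincristine replicate 4 had the steepest trend with the GC content of genes, a slope of -2.92 against -1.71 to 1.57. Of the neuron markers, 0 of 12 were at 0 in any group, and their summed level ran from 15749 to 16648 CPM in untreated WT and from 16567 to 17917 in untreated LZK KO. After vincristine it ran from 13389 to 14893 CPM in WT and from 18754 to 19183 in LZK KO. The 12 did not move alike: vincristine raised 3 and lowered 4 in WT, and raised 1 and lowered 1 in LZK KO. In untreated and treated WT, NEFM had means of 6260 and 4477 CPM, and DCX of 1295 and 1607. Between the untreated lines, 3 of the 12 were called higher and 2 lower in LZK KO. Markers of proliferating cells and progenitors (7 genes, MKI67 and TOP2A among them) summed to 31.5 to 37.9 CPM over the WT libraries. Over the LZK KO libraries they summed to 83.4 to 116, higher with and without vincristine. Of the 7, 6 were called higher and 1, SOX2, lower in LZK KO, untreated as well as treated. In untreated WT and LZK KO, MKI67 had means of 4.83 and 33.1 CPM, TOP2A 1.53 and 20.9, and SOX2 22.4 and 16.4. Of the 6 pluripotency markers, POU5F1, NANOG and TDGF1 were too low to test, and the sum was 2.00 to 4.67 CPM in WT and 13.6 to 19.1 in LZK KO. LIN28A alone made most of that sum (means of 1.88 CPM in untreated WT and 15.2 in untreated LZK KO), while L1TD1 had means of 0.794 and 0.361. Markers of peripheral or sensory neurons (6 genes) summed to 519.8 to 559.6 CPM in untreated WT and 163 to 285 in treated WT. In LZK KO they summed to 322 to 381 untreated and 319.7 to 354 treated. POU4F1 made most of the untreated WT sum (means of 434.9 CPM there and 147 in untreated LZK KO). POU4F2 (86.9 and 149.7) and TAC1 (8.39 and 60.2) were higher in untreated LZK KO. Of the 6, 2 were called higher and 3 lower in untreated LZK KO. POU4F1 (1.05 ± 0.17) and POU4F2 (0.63 ± 0.13) were called for the difference in response described below. The part of such cells in the differences was not tested, and in bulk RNA fewer cells of a type and less RNA per cell cannot be told apart. Nothing in the labels says that replicates came from separate cultures, so p-values measure only the spread between these libraries.

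The response of LZK KO neurons to vincristine differed from that of WT neurons in 2262 of 18235 genes, or 12.4% (adjusted p under 0.05). It was more positive in 1072 (5.88%) and more negative in 1190 (6.53%). Without WT vincristine replicate 4 the count was 2769, of which 2017 were among the 2262, and without LZK KO vincristine replicate 4 it was 2075, of which 1826 were. The count depended more on the fit. It was 1082, all among the 2262, when only the groups compared were fitted, and 3603 with the tool limma voom, of which 2031 were. A difference of at least 2-fold (1 on the log2 scale) was called in 469 genes, of which 330 were more negative in LZK KO. The vincristine effect itself was called in 5498 genes in WT (30.2%), up in 2855 (15.7%) and down in 2643 (14.5%), and in 707 in LZK KO (3.88%), up in 414 (2.27%) and down in 293 (1.61%). Without LZK KO untreated replicate 2 the LZK KO count was 452, without LZK KO vincristine replicate 4 it was 535, and without WT vincristine replicate 4 the WT count was 6050. The LZK KO count was lower still when only the groups compared were fitted.

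**Figure D1:**
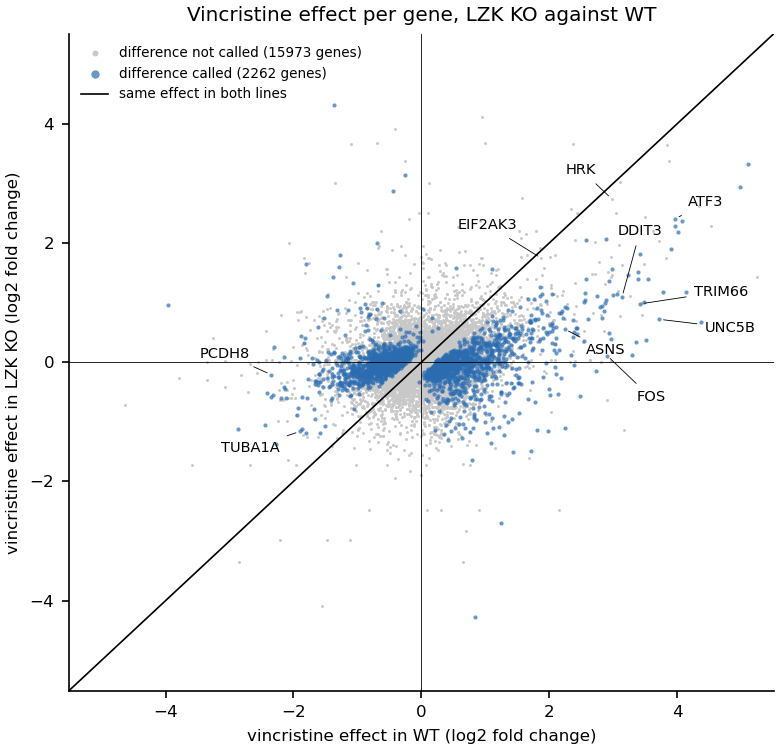
Each point is a gene, with its vincristine effect in WT on the horizontal axis and in LZK KO on the vertical axis, both as log2 fold change; coloured points are genes called for the difference in response and the diagonal marks equal effects. FOS (2.91 in WT, 0.11 in LZK KO) lies beside the horizontal axis and EIF2AK3 (1.88 and 1.75) beside the diagonal.

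The untreated lines already differed in 6188 genes (33.9%; 3120 higher and 3068 lower in LZK KO), and the vincristine-treated lines in 7789 (42.7%). Each called difference in response was therefore sorted by which of these level differences was called. In 961 of the 2262 genes (42.5%) only the vincristine level differed, and the response is called changed. In 521 (23%) only the untreated level differed. In 731 (32.3%) both levels differed and in 49 (2.17%) neither did. Without WT vincristine replicate 4 the counts of the 4 classes, in the same order, were 1229, 572, 907 and 61, and without LZK KO vincristine replicate 4 they were 928, 436, 668 and 43. A class says which level differences passed the test, not that the other level was equal in both lines. Where genes of a class are ranked below, the ranking covers well-measured genes only, those with a mean log2 CPM of at least 1 and over 3 counts in a library of every group.

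The classes differed in how much of the difference in response was carried by the untreated level, measured as the untreated difference between the lines with its sign turned, in percent of the difference in response. This share had a median of 10.3% in the changed response class and of 86.3% in the changed untreated level class. Over all 2262 genes it was under 25% in 1063, from 25% to 75% in 681 and over 75% in 518, with a median of 29.7%. It was negative in 709 genes, in which the untreated difference ran the same way as the difference in response. The share and the difference in response are made from the same untreated libraries, so it is given as a description. In the changed response class the median effect of vincristine among the 566 genes with a more negative response was 0.61 in WT and -0.06 in LZK KO. Among its 395 genes with a more positive response it was -0.57 in WT and 0.01 in LZK KO. Of the 961 genes, 873 had a called effect of vincristine in WT and 97 in LZK KO. Among the 469 genes with at least a 2-fold difference, 222 had a changed response, 79 a changed untreated level, 156 both and 12 neither.

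**Figure D2:**
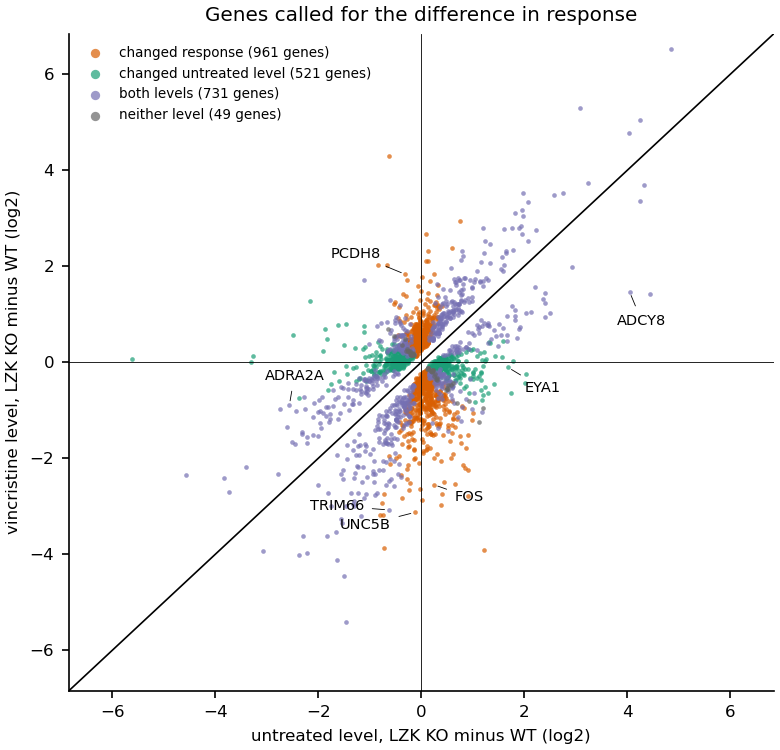
The untreated difference between LZK KO and WT (horizontal axis, log2) against the vincristine difference (vertical axis, log2) for the 2262 genes called for the difference in response, coloured by class. The 961 genes of changed response lie along the vertical axis and the 521 of changed untreated level along the horizontal one.

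FOS, an AP-1 subunit and early response gene, shows a changed response in its plainest form. It stood at 1.72, 2.05, 2.32 and 2.38 CPM in untreated WT and at 12.3, 15.5, 17.0 and 19.2 after vincristine. The LZK KO libraries were at 2.04, 2.59, 2.59 and 2.84 untreated and 2.18, 2.73, 2.77 and 3.17 treated. The treated WT libraries lay above all 12 others, which overlapped. FOS rose by 2.91 ± 0.16 in WT. In LZK KO the effect was 0.11 ± 0.20, adjusted p = 0.857, and the difference in response was -2.80 ± 0.26, adjusted p = 1.33e-09.

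Among well-measured genes of this class, UNC5B, a netrin receptor that can signal for death when its ligand is lacking, had the largest negative difference, -3.00 ± 0.36, adjusted p = 8.18e-07. Its levels were 4.85, 4.92, 5.17 and 6.12 CPM in untreated WT, 42.0, 69.2, 74.2 and 92.4 in treated WT, 2.89, 3.77, 5.23 and 6.94 in untreated LZK KO and 6.98, 7.01, 8.59 and 9.11 in treated LZK KO. The treated libraries of both lines lay above their untreated ones, but the rise in LZK KO was not called (0.72 ± 0.28, adjusted p = 0.166). CDC42EP1, an effector of the small GTPase CDC42 in actin assembly, rose by 2.94 ± 0.23 in WT, with a difference of -2.44 ± 0.45, adjusted p = 0.000233. ARHGAP42, a GTPase-activating protein, went from 1.58 to 2.1 CPM to 8.35 to 10.5 in WT. In LZK KO it ran from 1.25 to 2.04 untreated and from 1.09 to 1.88 treated, and its difference was -2.44 ± 0.32, adjusted p = 1.27e-06.

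Genes that vincristine lowered in WT also appear in this class. PCDH8, an adhesion protein of the protocadherin family, stood at 54.6, 56.4, 58.2 and 68.2 CPM in untreated WT and at 7.22, 10.6, 14.1 and 14.3 in treated WT. LZK KO libraries had 36.1, 49.7, 50.7 and 54.2 CPM untreated and 38.1, 39.0, 39.5 and 49.2 treated, and these groups overlapped. Its effect in WT was -2.35 ± 0.15 and the difference in response 2.15 ± 0.21, adjusted p = 9.6e-09. HRH3, the histamine receptor that restrains transmitter release, fell from 6.34 to 7.55 to 1.4 to 2.84 CPM in WT and ran from 4.59 to 6.71 and 3.21 to 8.23 CPM in the untreated and treated LZK KO libraries, a difference of 1.78 ± 0.28, adjusted p = 1.79e-05. The small nucleolar RNA SNORA19 (1.78 ± 0.60) and the pseudogene SNRPGP2 (1.66 ± 0.43) were the other well-measured genes among the 4 with the most positive difference. SNORA19 is a transcript that poly(A) selection recovers poorly, and its call was lost in 13 of 25 alternatives, 11 of which left out a single library (any apart from LZK KO untreated replicate 3, LZK KO vincristine replicates 1 and 4, WT untreated replicate 4 and WT vincristine replicate 4). SNRPGP2 may share reads with the gene it was copied from.

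A changed untreated level has another shape. EYA1, a transcriptional co-activator and phosphatase of development, stood at 18.5, 18.7, 19.4 and 19.7 CPM in untreated WT and rose to 73.5, 77.5, 81.3 and 91.8 with vincristine. In LZK KO it was at 56.3, 57.6, 62.6 and 68.3 before treatment and at 62.7, 74.4, 77.5 and 86.6 after it. Untreated LZK KO lay above all untreated WT libraries, and the treated groups overlapped. The untreated difference was 1.68 ± 0.09, the treated one -0.10 ± 0.08, and the difference in response -1.79 ± 0.12, adjusted p = 4.23e-13. The rise in LZK KO was small but called, 0.30 ± 0.08, adjusted p = 0.0267.

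In the opposite direction, CDH20, a classical cadherin, stood at 21.2, 22.4, 22.6 and 28.9 CPM in untreated WT. It stood at 5.82, 6.38, 6.48 and 8.87 after vincristine, and at 6.94, 7.31, 7.42 and 7.58 and 4.63, 5.93, 6.32 and 7.26 in untreated and treated LZK KO. Only the untreated WT group stood apart from the rest. The effect on CDH20 in WT was -1.78 ± 0.15, its untreated difference -1.70 ± 0.15 and its difference in response 1.50 ± 0.24, adjusted p = 2.32e-05. IRX3, a homeobox factor of the neural tube, had a difference of 1.87 ± 0.42, adjusted p = 0.00207, with an untreated difference of -1.50 ± 0.29. SH2D5, an adaptor protein enriched in neurons, had 1.73 ± 0.42, adjusted p = 0.00453, with -1.11 ± 0.25 untreated, and NBL1, an antagonist of bone morphogenetic proteins, had 1.41 ± 0.30, adjusted p = 0.00108, with -1.13 ± 0.20 untreated. The others among the 4 well-measured genes of this class with the most negative differences, ADAM20P1, OR2L2 and ADAMTS16, stayed under 5 CPM in every library, from -1.46 to -1.38. The call for OR2L2 was lost without WT untreated replicate 3 (-1.28), and that for ADAMTS16 without LZK KO untreated replicate 2 (-1.12).

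Where both levels differed, the 2 differences had the same sign in 527 of 731 genes, the untreated one being the larger in 168 and the treated one in 359. In the other 204 genes they had opposite signs. ADCY8, a calcium-stimulated adenylyl cyclase, belongs to the first kind. It stood at 4.21, 4.5, 4.97 and 5.31 CPM in untreated WT and 28.6, 32.1, 42.4 and 44.4 in treated WT, but at 73.2, 74.8, 80.5 and 84.5 in untreated LZK KO and 91.2, 94.3, 99.7 and 125 in treated LZK KO. Every LZK KO library, treated or not, lay above every WT library. The untreated difference, 4.05 ± 0.14, exceeded the treated one, 1.47 ± 0.11, and the difference in response was -2.57 ± 0.18, adjusted p = 2.12e-12. ADRA2A, an adrenergic receptor that dampens transmitter release, mirrored it, with an untreated difference of -2.56 ± 0.18, a treated one of -0.89 ± 0.24 and a difference in response of 1.67 ± 0.31, adjusted p = 0.000271.

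TRIM66, a chromatin reader of the TRIM family, is of the second kind. Its levels were 13.4, 14.9, 16.7 and 16.9 CPM in untreated WT and 147, 149.5, 179 and 187 in treated WT, against 8.36, 8.9, 10.6 and 11.7 and 18.3, 18.5, 19.7 and 21.9 in LZK KO. The 4 groups did not overlap within a line or a treatment. TRIM66 rose in both lines, by 3.43 ± 0.11 in WT and 0.98 ± 0.13 in LZK KO, with a difference of -2.44 ± 0.17, adjusted p = 2.12e-12. VLDLR-AS1 is an example of opposite signs, 1.19 ± 0.13 untreated and -1.04 ± 0.11 treated, with a difference in response of -2.22 ± 0.16. It is antisense to VLDLR, and since the strand setting of the counting is not given in the sources used here, its reads and those of VLDLR cannot be told apart. On the positive side of this class stood TICRR (1.90 ± 0.35, adjusted p = 0.000218), needed to start DNA replication, CHRM2 (1.61 ± 0.18, adjusted p = 1.31e-07), a muscarinic acetylcholine receptor, and B3GALT4 (1.60 ± 0.34, adjusted p = 0.00109), an enzyme of ganglioside synthesis.

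The 49 genes with neither level called were close to the threshold by construction. Among well-measured genes of this class the largest differences were in LRRD1 (-1.07 ± 0.37), CDRT4 (-1.05 ± 0.36), ZNF137P (-1.05 ± 0.34) and C21orf62-AS1 (-1.04 ± 0.32) on the negative side. On the positive side they were in BCAM (1.09 ± 0.37), GALNT10 (0.80 ± 0.27), BLOC1S3 (0.73 ± 0.25) and MON1A (0.54 ± 0.17). The calls of all 8 were lost in 6 to 17 of 25 alternatives.

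Some responses of WT were nearly as large in LZK KO. Of the 533 well-measured genes called in WT at 2-fold or more, 5 were also called in LZK KO in the same direction with a 95% interval of the difference inside -0.5 to 0.5. The rule asks for a narrow interval, so a less precisely measured gene can fail it with near-equal effects, and 5 is not a count of all kept responses. HRK, described below, rose by 2.98 in WT and 2.75 in LZK KO and did not pass. EIF2AK3, which encodes PERK, stood at 74.4, 74.6, 77.1 and 78.4 CPM in untreated WT and 264, 280.0, 287 and 289 in treated WT, and at 39.2, 40.3, 41.6 and 42.0 and 129, 135, 142 and 142 in LZK KO. Treated libraries lay above untreated ones in both lines, and LZK KO below WT in both conditions. The rise was 1.88 ± 0.06 in WT and 1.75 ± 0.06 in LZK KO, and the interval of the difference was -0.30 to 0.03.

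The others were STMN4, a stathmin that binds tubulin dimers (interval -0.42 to -0.06), SH2D3C, a signalling adaptor (-0.50 to 0.17), DRD2, the dopamine receptor that inhibits adenylyl cyclase (-0.49 to 0.10), and TUBB2B, a neuronal beta tubulin (0.10 to 0.46). STMN4, SH2D3C and DRD2 rose by 1.19, 1.16 and 1.03 in WT and by 0.95, 0.99 and 0.83 in LZK KO. The effect on TUBB2B was -1.06 ± 0.06 in WT and -0.78 ± 0.06 in LZK KO, and its small difference was itself called (0.28 ± 0.09, adjusted p = 0.03), though not in 10 of 25 alternatives. The difference was called for STMN4 in 6 of 25 alternatives, DESeq2 and limma voom among them, and without LZK KO vincristine replicate 2 (-0.30). For SH2D3C and DRD2 it was called in 2, limma voom and GC content offsets, and for EIF2AK3 in 0 of the 25.

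**Figure D3:**
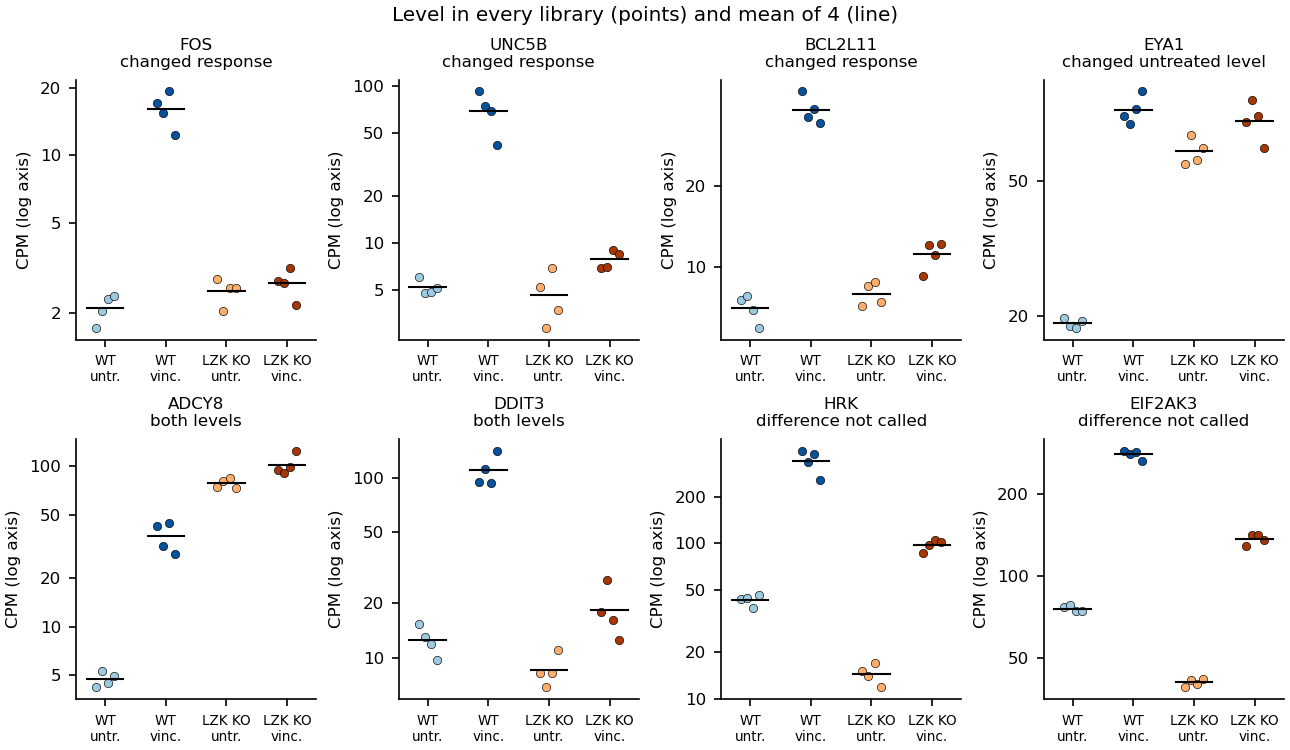
CPM of selected genes in each of the 16 libraries (log axis), by line and treatment, with a bar at each group mean. In FOS only treated WT stands apart, in EYA1 only untreated WT, and in EIF2AK3 vincristine raised both lines.

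The counts for gene lists that follow can be read against all genes tested, of which 5.88% had a more positive and 6.53% a more negative response. In the kinase pathway that LZK feeds, of 18 tested genes for DLK, LZK, the MKKs, the JNKs, their scaffolds and regulators, 1 had a more negative response in LZK KO with edgeR, MAP3K13 itself, 2 had one at an unadjusted p under 0.05 or with DESeq2, and 6 with limma voom. The median difference was -0.07. In WT, vincristine raised 4 and lowered 1 of them. Over all 18235 genes the median difference was 0.004. Of 9 tested MAP kinase phosphatases, which switch MAP kinases off and are often induced by them, 2 were more positive and 1 more negative. DUSP1 rose by 1.07 ± 0.10 in WT and 0.53 ± 0.10 in LZK KO (-0.53 ± 0.14, adjusted p = 0.00884). DUSP16, which acts on JNK, rose by 2.41 ± 0.09 in WT and 2.06 ± 0.10 in LZK KO, with an interval of the difference of -0.62 to -0.07. For DUSP8, which also acts on JNK, the interval was -0.85 to 0.19. Both were called with limma voom and without WT vincristine replicate 4 (-0.37 and -0.55), and DUSP16 also without LZK KO untreated replicate 3 (-0.40).

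The transcription factors that JNK acts on, and their partners, differed from gene to gene. Of 16 tested AP-1, ATF and CREB genes, 12 rose and 1 fell in WT, 6 rose in LZK KO, and 7 had a more negative response in LZK KO, with a median difference of -0.38. ATF3, a stress-induced partner of JUN, stood at 12.5, 13.9, 14.9 and 15.1 CPM in untreated WT and 213, 218, 224 and 234 in treated WT, and at 6.86, 6.94, 7.73 and 8.36 and 32.0, 39.2, 42.6 and 44.8 in LZK KO. It rose in both lines without overlap, by 3.98 ± 0.11 in WT and 2.41 ± 0.12 in LZK KO, and the difference in response was -1.57 ± 0.17, adjusted p = 1.76e-08. JUN stood at 131, 138, 140.2 and 151 and 289, 538, 570.4 and 629 CPM in untreated and treated WT, and at 100.4, 114, 117 and 133 and 266, 269, 292 and 293 in LZK KO. The treated groups of the 2 lines overlapped.

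JUN rose by 1.86 ± 0.14 in WT and by 1.27 ± 0.14 in LZK KO, and the difference, -0.59 ± 0.19, adjusted p = 0.04, was close to the threshold. It was lost in 15 of 25 alternatives, 12 of which left out a single library (any of those of the 4 groups apart from LZK KO untreated replicate 2, LZK KO vincristine replicate 4, WT untreated replicate 2 and WT vincristine replicate 4), and its value ran from -0.78 to -0.46. ATF5 (-1.44 ± 0.19, adjusted p = 1.01e-06) and CREB1 (-0.30 ± 0.08, adjusted p = 0.0134) were also more negative, as was CREB5 (-0.52 ± 0.16), whose call was lost without LZK KO untreated replicate 2 (-0.45), LZK KO vincristine replicate 1 (-0.47) or WT untreated replicate 2 (-0.49). For CREB1 only the untreated level was called between the lines, and for ATF5 and CREB5 both levels were. JUND, called only with GC content offsets among the alternatives, had an interval of -0.65 to 0.28, and ATF2, the factor in the title of the study, one of -0.32 to 0.30.

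JUN is known to bind its own promoter. For JUN and ATF3, the stretches of their promoters that hold a JUN-type element are shown, 30 bases each from RefSeq on GRCh38.p14, 5′ to 3′ on the strand of the gene, with the element TGACATCA in capitals. The element starts 123 bases before the RefSeq start of ATF3 and 67 before that of JUN, and the JUN stretch lies inside the longer JUN gene model of GENCODE 29.
ATF3, chr1:212565273-212565302, plus strand: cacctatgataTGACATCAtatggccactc
JUN, chr1:58784096-58784125, minus strand: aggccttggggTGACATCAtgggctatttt
Searched on both strands from 250 bases before to 50 after the first start listed, TGACATCA was found in 2.71% of 27305 RefSeq promoters and in 2 of the 15 promoters matched for the AP-1 and ATF list, those shown. A match describes the letters only.

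Of 10 tested early response genes, which neurons switch on within minutes of activity or stress, 8 rose in WT and 4 in LZK KO. The response was more negative in 5 and more positive in 1, with a median difference of -1.14. EGR1, a zinc finger factor, stood at 17.2, 17.6, 19.3 and 20.1 CPM in untreated WT and 190.5, 308, 325 and 371 in treated WT. In LZK KO it stood at 5.3, 6.01, 6.6 and 7.7 untreated and 24.1, 27.9, 32.4 and 32.5 treated, so that treated LZK KO libraries lay above untreated WT and far below treated WT. It rose by 4.01 ± 0.16 in WT and 2.19 ± 0.19 in LZK KO (-1.82 ± 0.25, adjusted p = 5.66e-06). ARC, a regulator of synapses (-1.47 ± 0.26, adjusted p = 0.000135), NR4A1, a nuclear receptor (-1.52 ± 0.35, adjusted p = 0.00317), and IER2 (-1.18 ± 0.18, adjusted p = 2.02e-05) were also more negative. ARC and IER2 were of the changed response class, while for NR4A1 only the untreated level was called between the lines. BHLHE40, a repressor linked to the circadian clock, was at -2.47 ± 0.66, and its call was lost without LZK KO untreated replicate 2 (-1.99). NR4A3, a nuclear receptor, went the other way, with an effect of -1.66 ± 0.10 in WT, of -0.31 ± 0.09 in LZK KO and a difference of 1.35 ± 0.13, adjusted p = 1.33e-09.

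The list for the integrated stress response holds 11 tested genes, ATF4 and genes linked to it, and leaves out EIF2AK3, whose difference was not called. All 11 rose in WT, 9 rose in LZK KO, and all 11 had a more negative response in LZK KO, with a median of -1.69 against a median effect of 2.24 in WT and 0.57 in LZK KO. ATF4, its central factor, stood at 167, 170.1, 178 and 182 CPM in untreated WT and 321, 337, 387 and 441 in treated WT. It stood at 171, 178, 192 and 198 and 193, 212, 218 and 242 in LZK KO, where the groups overlapped, and its difference was -0.87 ± 0.12, adjusted p = 2.7e-06. DDIT3, which encodes the stress factor CHOP, stood at 9.74, 11.9, 12.9 and 15.3 CPM in untreated WT and 93.6, 94.6, 111 and 141 in treated WT.

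In LZK KO, DDIT3 stood at 6.86, 8.19, 8.23 and 11.1 untreated and 12.5, 16.2, 17.9 and 26.9 treated, a called rise of 1.09 ± 0.19 against 3.14 ± 0.16 in WT, and the difference was -2.05 ± 0.25, adjusted p = 4.32e-07. TRIB3, a pseudokinase that restrains ATF4, had -1.86 ± 0.18, adjusted p = 1.33e-09. CHAC1, which degrades glutathione, had -1.84 ± 0.20, adjusted p = 3.18e-08, and SESN2, which restrains mTORC1, had -1.88 ± 0.21, adjusted p = 7.38e-08. In 3 of the 11 genes only the treated level differed between the lines and in 8 both levels did.

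Genes of serine, one-carbon and amino acid supply include many known ATF4 targets. Of 15 tested, 13 rose in WT and 7 in LZK KO, and 13 had a more negative response, with a median of -1.01. SLC7A11, the cystine importer, stood at 2.25, 3.28, 3.63 and 5.83 CPM in untreated WT and 107, 119.9, 126 and 154 in treated WT. It stood at 0.722, 0.91, 1.11 and 1.29 and 7.02, 7.87, 12.5 and 13.5 in LZK KO, and no group overlapped another of its line or treatment. Its rise was 5.11 ± 0.18 in WT and still 3.32 ± 0.27 in LZK KO, with a difference of -1.79 ± 0.41, adjusted p = 0.0031. PHGDH, the entry enzyme of serine synthesis, went from 25.4 to 28.7 to 136 to 146 CPM in WT and from 19.0 to 21.0 to 28.0 to 37.0 in LZK KO (-1.68 ± 0.12, adjusted p = 3.74e-12). PSAT1, the next enzyme, had -1.31 ± 0.16, and ASNS, which makes asparagine, had -1.69 ± 0.20. The 2 without a called difference were SLC7A3 (interval -1.01 to 0.54) and SLC38A2 (-0.54 to -0.01).

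All 12 tested aminoacyl-tRNA synthetases, which load amino acids onto tRNA, rose in WT, 4 rose in LZK KO, and 10 had a more negative response, with a median of -0.69. AARS, for alanine, rose by 0.94 ± 0.07 in WT and 0.27 ± 0.08 in LZK KO (-0.68 ± 0.11, adjusted p = 2.02e-05). GARS, for glycine, had -0.96 ± 0.09, adjusted p = 2.58e-09 and TARS, for threonine, -0.92 ± 0.12, adjusted p = 6.23e-07. LARS (interval -0.48 to -0.06) and NARS (-0.45 to 0.09) were not called. In 9 of the 10 called genes both levels differed between the lines.

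Because these genes share a known regulator, the promoter stretches that hold an ATF4-type element are shown for those matched, 30 bases each from RefSeq on GRCh38.p14, 5′ to 3′ on the strand of the gene. Capitals mark TGATGNAA or, where the element lies on the other strand, its reverse complement TTNCATCA. The stretches were chosen around RefSeq starts, and apart from that of AARS they lie inside the gene models of GENCODE 29.
ASNS, chr7:97872458-97872487, minus strand: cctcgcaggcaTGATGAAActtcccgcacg
CHAC1, chr15:40953251-40953280, plus strand: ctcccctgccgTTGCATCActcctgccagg
AARS, chr16:70289675-70289704, minus strand: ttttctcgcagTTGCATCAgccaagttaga
CARS, chr11:3057407-3057436, minus strand: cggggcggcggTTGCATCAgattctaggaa
IARS, chr9:92293692-92293721, minus strand: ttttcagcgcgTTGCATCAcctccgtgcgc
MARS, chr12:57488053-57488082, plus strand: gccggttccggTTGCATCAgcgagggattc
TARS, chr5:33440956-33440985, plus strand: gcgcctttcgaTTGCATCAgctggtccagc
NARS, chr18:57621804-57621833, minus strand: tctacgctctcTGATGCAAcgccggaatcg
TGATGNAA was found on either strand in 3.67% of the 27305 promoters. It was found in 6 of the 10 promoters matched among the 12 synthetases, all shown here, in 2 of 11 of the integrated stress response list and in 2 of 10 of the amino acid list (SLC3A2 and SLC7A1, not shown). NARS carries the element although its difference in response was not called. The ATF3 promoter, shown above for its JUN-type element, also holds an ATF4-type element, 191 bases before its start (not shown).

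**Figure D4:**
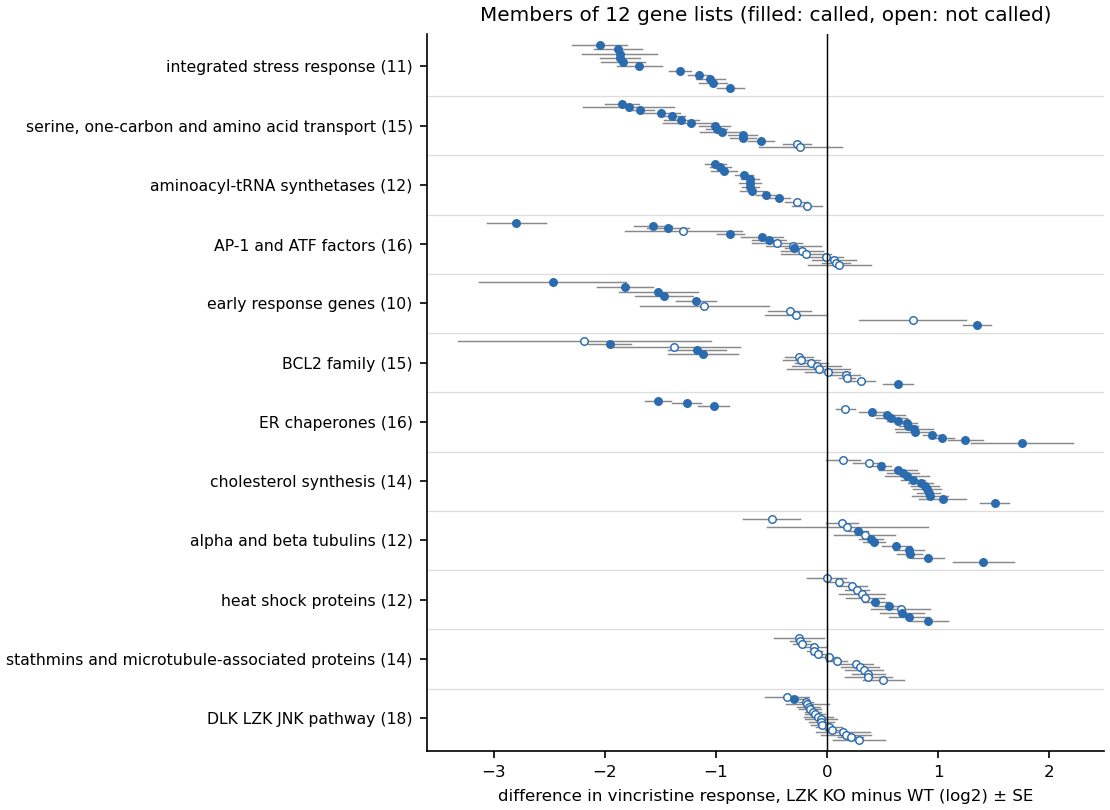
Difference in response, LZK KO minus WT (horizontal axis, log2), for each tested member of the gene lists (rows); filled points are called, open ones are not, and bars show 1 SE. The integrated stress response (median -1.69), amino acid and synthetase lists lie to the left of 0, and cholesterol synthesis (median 0.81) and ER chaperones (0.68) to the right.

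Genes that act on cell death differed from each other. Of 15 tested BCL2 family members, 6 rose and 3 fell in WT, 3 rose in LZK KO, and 3 had a more negative and 1 a more positive response. BCL2L11, which encodes the BH3-only death protein BIM, stood at 5.96, 6.95, 7.55 and 7.83 CPM in untreated WT and 34.2, 36.1, 38.6 and 44.9 in treated WT, and at 7.16, 7.42, 8.54 and 8.79 and 9.31, 11.2, 12.1 and 12.2 in LZK KO. Only treated WT stood far apart, and the difference was -1.96 ± 0.19, adjusted p = 3.16e-09. BBC3, which encodes the BH3-only protein PUMA, rose by 2.58 ± 0.16 in WT and 1.40 ± 0.20 in LZK KO (-1.17 ± 0.26, adjusted p = 0.0021). BMF, another BH3-only gene, had -1.11 ± 0.32, adjusted p = 0.0156. BID, which links death receptors to mitochondria, had an effect of -0.57 ± 0.10 in WT and a difference in response of 0.64 ± 0.14, adjusted p = 0.00141.

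HRK, a BH3-only gene known for its role in neurons, had no called difference in response with edgeR. It stood at 38.4, 44.2, 44.5 and 46.6 CPM in untreated WT and 256, 337, 377 and 395 in treated WT, and at 11.9, 14.1, 15.1 and 17.1 and 87.4, 98.0, 102 and 105 in LZK KO. Treated libraries lay above untreated ones in both lines, and LZK KO lay below WT in both conditions. HRK rose by 2.98 ± 0.12 in WT and by 2.75 ± 0.13 in LZK KO, and the interval of the difference in response was -0.58 to 0.11, though limma voom called it (-0.40). The untreated difference between the lines was -1.57 ± 0.13, adjusted p = 3.93e-12. Its promoter holds an ATF4-type element 75 bases before the start.
HRK, chr12:116881498-116881527, minus strand: cgggggccggaTGATGTAAcccccctcccc
The guardian MCL1 was not called with edgeR (interval 0.03 to 0.34) but was with DESeq2 and limma voom. Of 12 tested death receptors, caspases and axon survival genes, 2 had a more negative and 2 a more positive response (16.7% each, against 6.53% and 5.88% of all genes). TNFRSF12A, a receptor of the TNF family, had the largest value, -2.23 ± 0.78, adjusted p = 0.0546, not called here but called in 8 of 25 alternatives, DESeq2 and limma voom among them. TNFRSF10B, a receptor for the ligand TRAIL, had -0.92 ± 0.27, adjusted p = 0.0224, lost without LZK KO untreated replicate 2 (-0.85) or 3 (-0.80) and without LZK KO vincristine replicate 2 (-0.82). TNFRSF21, a death receptor of developing neurons, had 0.48 ± 0.11, adjusted p = 0.00284.

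Most genes for protein folding in the endoplasmic reticulum (ER) and for cholesterol synthesis fell in WT and had a more positive response in LZK KO. Of 16 tested chaperones and related genes of the ER, 13 fell and 3 rose in WT, 4 fell in LZK KO, and 12 had a more positive and 3 a more negative response. In untreated cells 8 of the 16 were already lower in LZK KO than in WT. Of the called genes, 8 had a changed response, 1 a changed untreated level and 6 both. HSPA5, the main chaperone BiP, stood at 212, 238, 239 and 248 CPM in untreated WT and 87.3, 91.2, 96.5 and 100.4 in treated WT, and at 167, 181, 185 and 186 and 135, 139.5, 141 and 141 in LZK KO. Treated libraries lay below untreated ones in both lines, and the difference was 0.95 ± 0.08, adjusted p = 1.27e-10. The 3 more negative genes, which had risen in WT, were XBP1, a factor of the unfolded protein response (-1.52 ± 0.12, adjusted p = 1.29e-11), HERPUD1 (-1.26 ± 0.13, adjusted p = 1.32e-08) and EDEM1 (-1.02 ± 0.14, adjusted p = 1.91e-06), both of protein degradation.

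Of 14 tested genes of cholesterol synthesis and uptake, 13 fell in WT and 4 in LZK KO, and 12 had a more positive response, with a median of 0.81. In untreated cells 11 of the 14 were already lower in LZK KO than in WT, with a median of -0.49. Of the 12, 3 had a changed response, 3 a changed untreated level and 6 both. INSIG1, which holds back sterol synthesis and is itself induced when sterol is low, stood at 158, 194, 198 and 205 CPM in untreated WT and 37.9, 39.6, 48.4 and 48.7 in treated WT. In LZK KO it stood at 112, 120.2, 122 and 123 untreated and 62.7, 80.2, 85.0 and 85.9 treated, and its difference was 1.51 ± 0.13, adjusted p = 1.38e-10. SQLE, an epoxidase of the pathway, had 0.92 ± 0.10, adjusted p = 5.3e-08, and HMGCS1, an early enzyme, had 0.68 ± 0.14, adjusted p = 0.00147. Of 12 tested heat shock genes, 7 fell in WT and 5 had a more positive response in LZK KO. The effect in LZK KO itself was called in 0 of the 12 by edgeR, DESeq2 and limma voom, and 1 had an unadjusted p under 0.05. HSPA1A had 0.91 ± 0.18, adjusted p = 0.000529, but it shares reads with its near-identical copy HSPA1B.

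Most tubulin genes fell in both lines. When free tubulin dimers increase, cells are known to degrade tubulin mRNA. Whether this took place here was not tested. Of 12 tested alpha and beta tubulins, 10 fell and 1 rose in WT and 8 fell in LZK KO, and 8 had a more positive response, with median effects of -1.52 in WT and -0.93 in LZK KO. TUBB stood at 1267, 1351, 1374 and 1471 CPM in untreated WT and 417, 418, 439.9 and 548 in treated WT, and at 1380.0, 1386, 1420.0 and 1615 and 563, 596, 682 and 709.7 in LZK KO. Its groups overlapped only between the untreated lines. The effect on TUBB was -1.58 ± 0.08 in WT and -1.19 ± 0.08 in LZK KO, with a difference of 0.40 ± 0.11, adjusted p = 0.0126. For TUBA1A the effects were -1.90 ± 0.10 and -1.16 ± 0.10, with a difference of 0.74 ± 0.14, adjusted p = 0.000367, though reads of TUBA1A, TUBA1B and TUBA1C, and of TUBB2A and TUBB2B, may be split between near-identical copies. Of 14 tested stathmins and microtubule-associated proteins, 0 were called for the difference in response with edgeR, 4 had an unadjusted p under 0.05, DESeq2 called 2 and limma voom 5. Their median difference was 0.05.

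Of 13 tested genes listed for axon injury and regrowth, 6 had a more negative response and 1, KLF6, a more positive one (0.33). The list was drawn up with earlier results of these data known. SOX11, GAP43, BASP1, GAL, ADCYAP1 and SEMA6A were not called with edgeR. KLF7 was among the 6 (-0.25), but its call was lost in 11 of 25 alternatives, and that of KLF6 in 7. SMAD1, a mediator of bone morphogenetic protein signals in regrowing sensory neurons, went from 40.5 to 46.9 to 141 to 178 CPM in WT and from 47.5 to 52.9 to 60.8 to 70.4 in LZK KO (-1.47 ± 0.10, adjusted p = 4.23e-13). STC1, a secreted hormone, had -1.87 ± 0.25, adjusted p = 1.4e-06. ABCB1, a drug efflux pump, had -2.96 ± 0.67, but was at 0.0925 to 0.722 CPM in untreated LZK KO, and its call was lost without LZK KO untreated replicate 2 (-2.22). ARID5A, an RNA-binding protein that stabilises cytokine mRNA, had -2.04 ± 0.47, lost without LZK KO untreated replicate 3 (-1.55).

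Of 26 tested axon guidance genes, 5 had a more positive response (19.2%, against 5.88% of all genes) and 1, UNC5B, a more negative one (3.85%, against 6.53%). NRP1, a semaphorin receptor (0.53 ± 0.11, adjusted p = 0.00104), and the ephrin receptors EPHA4 (0.51 ± 0.09, adjusted p = 7.96e-05) and EPHA5 (0.63 ± 0.10, adjusted p = 2.07e-05) were among the 5. Of 20 tested integrin and matrix genes, ITGA8 (-3.15 ± 0.44, adjusted p = 3.53e-06) and ITGAV (-1.28 ± 0.16, adjusted p = 2.4e-07), both alpha chains of matrix receptors, were more negative, a share of 10% against 12.4% called in either direction over all genes. ITGA8 stood at 0.596, 0.669, 0.746 and 1.05 CPM in untreated WT and 8.09, 8.63, 9.65 and 10.0 in treated WT, and at 0.74, 1.06, 1.08 and 1.36 and 0.847, 0.921, 1.66 and 2.00 in LZK KO.

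BDNF, a neurotrophin released by active neurons, was 1 of 2 genes with a more negative response among 13 tested neurotrophic genes. It stood at 1.09, 1.41, 1.43 and 2.8 CPM in untreated WT and 4.86, 6.95, 7.01 and 7.19 in treated WT, and at 2.17, 2.94, 3.15 and 5.00 and 3.07, 3.1, 3.33 and 3.75 in LZK KO. The untreated groups overlapped, and treated LZK KO lay below treated WT. Both levels differed, with opposite signs (0.98 ± 0.24 and -0.97 ± 0.20), and the difference in response was -1.95 ± 0.31, adjusted p = 3.21e-05. The receptor RET (0.78 ± 0.18, adjusted p = 0.00318) and its partner GFRA1 (0.64 ± 0.10, adjusted p = 3.23e-05) were more positive. For RET only the untreated level was called between the lines, and for GFRA1 both levels were.

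Of 18 tested synaptic vesicle and release genes 1 was called, SYT1, the calcium sensor of release (0.25 ± 0.07, adjusted p = 0.00887), a share of 5.56% against 12.4% over all genes. DESeq2 called 3 of the 18 and 6 had an unadjusted p under 0.05. Of 12 tested targets of the tumour suppressor p53, 3 were more negative and 2 more positive. BTG2, which slows division, had -0.87 ± 0.12, adjusted p = 3.06e-06 and GADD45A, a stress sensor, -0.71 ± 0.13, adjusted p = 0.000219. Of 12 tested genes of glycolysis and hypoxia, VEGFA, an angiogenic factor, was more negative (-1.33 ± 0.25, adjusted p = 0.000421) and SLC2A1, a glucose transporter, more positive (0.88 ± 0.15, adjusted p = 7.03e-05). These 2 make a share of 16.7% against 12.4% over all genes.

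Response genes chosen without these libraries were followed as well. In the second experiment of the study, on neurons of the same line with a scrambled control guide, vincristine raised 873 genes and lowered 172 by at least 2-fold, of which 629 and 141 were tested here. Over the 629, the median effect was 1.08 in WT and 0.40 in LZK KO, and the median difference in response -0.73. The response was more negative in 213 (33.9%, against 6.53% of all genes) and more positive in 1. Over the 141, the median effect was -1.13 in WT and -0.25 in LZK KO, the median difference 0.81, and the response was more positive in 84 (59.6%, against 5.88%). Of the 213 and 1 genes, 99 had a changed response, 12 a changed untreated level and 103 both. Of the 84, these counts were 16, 14 and 54.

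Against the knockout of DLK, the response of LZK KO neurons differed in 12 genes with edgeR (0.0658% of those tested), of which 5 were more positive in LZK KO, and 1448 had an unadjusted p under 0.05. EGR1 rose by 2.19 ± 0.19 in LZK KO and by 0.79 ± 0.15 in DLK KO, a difference of 1.41 ± 0.24, adjusted p = 0.0182. ADCY8 rose by 0.39 ± 0.11 in LZK KO and by 1.60 ± 0.16 in DLK KO (-1.21 ± 0.20, adjusted p = 0.00744). For TUBB the effects were -1.19 ± 0.08 and -1.73 ± 0.08 (0.54 ± 0.11, adjusted p = 0.0332). DHCR7, the last enzyme of cholesterol synthesis, had -0.63 ± 0.12, adjusted p = 0.0261. More positive in LZK KO were also UTRN (0.47), which encodes utrophin, the protease PAPPA (0.72) and the cadherin CDH13 (0.63). More negative were KLHL5 (-0.61), the serotonin receptor HTR5A (-1.32), PRUNE2 (-0.74), the natural killer cell ligand NCR3LG1 (-0.75) and the lipase LIPG (-1.37). Other tools and single libraries moved this count from 2 to 190, and a gene without a call is not shown to respond alike in both lines.

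Genes that still rose in LZK KO were compared with the knockout of both kinases. The response of the double KO differed from that of LZK KO in 167 genes (0.916%), 136 more negative and 31 more positive in the double KO. EIF2AK3, which rose by 1.75 ± 0.06 in LZK KO, had an effect of -0.10 ± 0.06 in the double KO (-1.84 ± 0.08, adjusted p = 8.69e-18). HRK rose by 2.75 ± 0.13 in LZK KO and its effect was 0.27 ± 0.20 in the double KO (-2.48 ± 0.24, adjusted p = 4.07e-08). For SLC7A11 the effects were 3.32 ± 0.27 and 0.22 ± 0.34 (-3.10 ± 0.46, adjusted p = 0.000105), for ATF3 2.41 ± 0.12 and 0.37 ± 0.23 (-2.03 ± 0.27, adjusted p = 1.31e-05), and for BBC3 1.40 ± 0.20 and -0.09 ± 0.22 (-1.49 ± 0.29, adjusted p = 0.00376).

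Vincristine changed 12 genes in the double KO (0.0658%), 11 of them down. Tubulins still fell there, with effects of -1.64 ± 0.10 for TUBA1A and -1.56 ± 0.08 for TUBB. The difference between the double KO and LZK KO was -0.48 ± 0.14, adjusted p = 0.106 for TUBA1A and -0.38 ± 0.11, adjusted p = 0.106 for TUBB, neither of them called. Of the 12 tested alpha and beta tubulins 1 was called, TUBB2B (-0.67 ± 0.09, adjusted p = 1.19e-05). Its effects were -0.78 in LZK KO and -1.45 in the double KO. Among the genes with a more positive response in the double KO than in LZK KO was INSIG1 (0.91 ± 0.13, adjusted p = 4.82e-05). These comparisons share the LZK KO libraries with the comparison to WT.

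**Figure D5:**
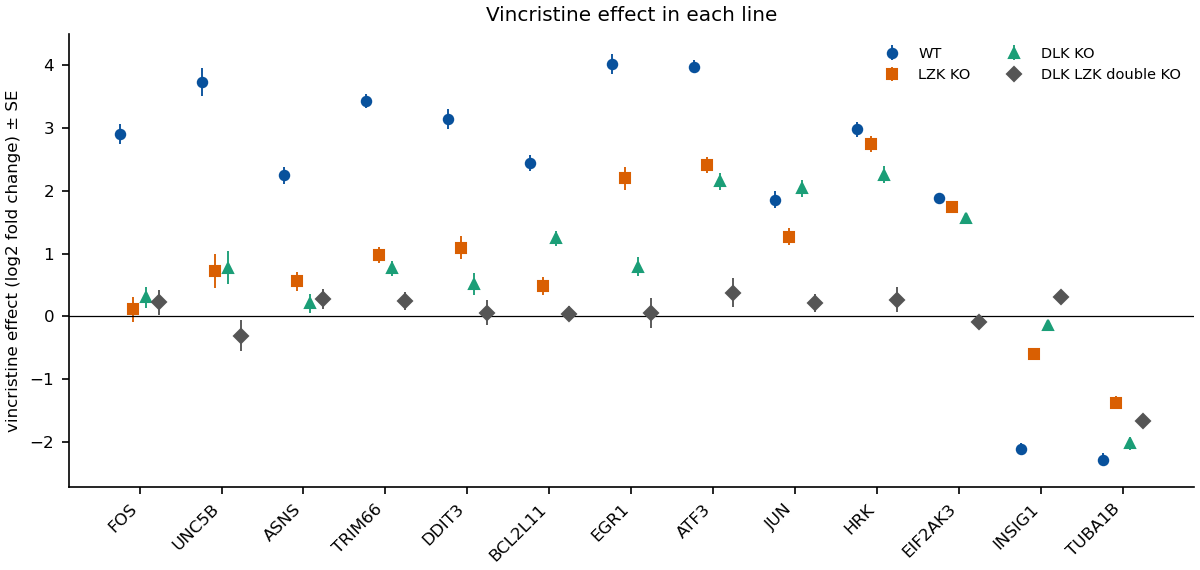
Vincristine effect (log2, vertical axis, points with bars of 1 SE) in WT, LZK KO, DLK KO and double KO for genes named in the text. HRK and EIF2AK3 rose in WT and both single knockouts and were not called in the double KO, and TUBA1B fell in all 4 lines.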

How the data were processed

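The deposited table holds raw counts per gene, as whole numbers. Per the submitters' processing notes, the tools were cutadapt 3.4, STAR and featureCounts of Subread 2.0.1, with the build GRCh38. The strand setting and the treatment of duplicates are not given in the sources used here. Per the labels' protocols, libraries were made from poly(A) RNA with a stranded kit and read in pairs. Of 58440 gene identifiers, 58320 received a symbol, 56992 of them from the same version in GENCODE 29, and 0 count columns were left unused. Within each group of the WT and LZK KO lines, no library was a copy of another. Pairs across groups and the libraries of the other lines were not checked in this way.

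The 32 libraries of the first experiment, in 8 groups, were fitted together with edgeR 4.0.16 in R 4.3.3 (filterByExpr by group, TMM factors, robust quasi-likelihood fit, 1 mean per group). A gene is called at an adjusted p under 0.05 (2-sided, Benjamini-Hochberg over all genes tested). The SE is |log2 fold change| over the square root of the F statistic, and intervals are 95% (2.064 SE). CPM are computed with TMM factors. Each called gene was classed by whether the untreated and the vincristine levels were called between the lines. Total counts were 8.41 to 14.6 M, so genes near 1 CPM rest on few reads per library. Counting error and the spread between libraries were not separated. The fit was tested on simulated data.

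The text names the targeted genes and, in each class and direction, the 4 largest differences with mean log2 CPM of at least 1 and over 3 counts in a library of every group. It also names kept responses and members of the gene lists. The genes chosen in the second experiment were raised or lowered at least 2-fold by vincristine in Control gRNA neurons. The lists, the rule and the comparison were chosen with earlier results of these data known.

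Alternatives were DESeq2 1.42.0, RLE factors, no filter, a mean of at least 1 CPM, the replicate number as a block, only the groups compared, voom of limma 3.58.1 with quality weights per library, and leaving out each library. Offsets for GC content and gene length, and the classes at 2-fold, were added after seeing the data. The replicate numbers do not pair the libraries. Promoter sequences come from RefSeq (GRCh38.p14). Further tools were data.table (version 1.17.8), Python 3.11.15 and matplotlib 3.10.9.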

Additional observations from a re-analysis of the deposited data

Results flagged for a closer look

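In 7 of the 156 groups of 4 libraries checked for the named genes, the highest or lowest library stood far from the other 3, while chance gives about 1 in 20. MAP3K12 was at 94.3 CPM in WT untreated replicate 2, against 89.7 to 90.2. CDC42EP1 was at 0.484 CPM in LZK KO vincristine replicate 4, against 1.54 to 1.55, and PCDH8 at 49.2 in the same library, against 38.1 to 39.5. IRX3 was at 1.31 CPM in LZK KO vincristine replicate 2, against 2.56 to 2.77. C21orf62-AS1 was at 2.71 CPM in LZK KO untreated replicate 4, against 1.93 to 2.05. GALNT10 was at 3.73 CPM in LZK KO untreated replicate 2, against 4.44 to 4.55. MON1A was at 12.1 CPM in WT vincristine replicate 4, against 15.0 to 15.6.

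The response to vincristine differed between lines by the test of the difference itself in 2262 genes for LZK KO against WT, in 167 for double KO against LZK KO, and in 12 for LZK KO against DLK KO. For the last of these the differences, LZK KO minus DLK KO in log2, were 1.41 for EGR1, 0.72 for PAPPA, 0.63 for CDH13, 0.54 for TUBB and 0.47 for UTRN. They were -0.61 for KLHL5, -0.63 for DHCR7, -0.74 for PRUNE2, -0.75 for NCR3LG1, -1.21 for ADCY8, -1.32 for HTR5A and -1.37 for LIPG.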

How the results depend on the processing

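Of the 155 called genes followed one by one, 110 stayed called in every alternative, 45 lost the call in at least 1, and none reversed. Of 15 uncalled genes 12 gained a call in at least 1. MAP3K12, not called, ran from -0.19 to 0.0228 over the 25 alternatives, the latter without WT vincristine replicate 1 (adjusted p = 0.939). The count of 2262 became 1082 with only the groups compared, all of them among the 2262, and 3603 with limma voom. The effect in LZK KO (707 genes) became 311 with only the groups compared. The 4 classes became 483, 230, 358 and 11 with only the groups compared, and changed response, both levels and neither level became 1554, 1199 and 82 with limma voom. As shares, changed response stayed at 39.2 to 45.8% and changed untreated level at 18.3 to 26.6% of called genes. LZK KO against DLK KO (12) became 34 with DESeq2, 42 with no filter, 6 with the replicate block, 20 with only the groups compared, 190 with limma voom and 47 with GC content offsets. Double KO against LZK KO (167) became 335 with limma voom and 263 with GC content offsets. The median differences of genes chosen in the second experiment became -0.26 and 0.26 over all genes called there. The cause of these shifts was not tested. The fit of only the groups compared held fewer libraries and also left out the other groups, which cannot be told apart here.

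Leaving out single libraries gave 1783 to 2769 called genes, 5451 to 6295 for the untreated level, 6844 to 8620 for the vincristine level, 4671 to 6050 for the effect in WT and 452 to 783 for that in LZK KO. It gave 2 to 21 for LZK KO against DLK KO and 122 to 214 for double KO against LZK KO. Changed response ran from 728 to 1229, changed untreated level from 357 to 631, both levels from 568 to 907 and neither level from 32 to 76. With the replicate number as a block 2012 genes were called. Libraries with the same number correlated from -0.61 to 0.22 in their deviations, and 1 of them correlated best with its own number.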

Other observations

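The difference in response had a trend with GC content. In the 10% of genes with the lowest GC content the median difference was -0.10, with 51 genes called higher and 164 lower, and in the 10% with the highest it was 0.18, with 125 higher and 23 lower. With GC content offsets 2864 genes were called, 2005 of them among the 2262. Short and long genes also differed: the median was 0.28 in the shortest 10%, with 9 genes called higher and 17 lower. It was -0.08 in the longest 10%, with 96 higher and 262 lower. Genes of small RNAs held 1.81 to 2.7% of counts in untreated WT libraries and 1.87 to 3.14% in treated ones. In LZK KO they held 2.72 to 3.49% untreated and 2.27 to 5.16% treated. Their part in these trends was not tested.

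In windows of 41 neighbouring tested genes, the largest median of the untreated difference was 0.67, on chromosome 6 from 26026815 to 27893843. The largest of the difference in response was 0.71, on chromosome 15 from 24823637 to 26949207. The cause of these window medians was not tested.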
